A study of Mus musculus with 4 samples.

Results

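Expression of 7 mouse genes was examined in bone marrow-derived macrophages of 2 genotypes, with and without lipopolysaccharide (LPS): Cav1, Cd28, Dnase1l3, Ednrb, Egr3, Kazald1 and Galnt3. The 7 were chosen by measured values, namely knockout minus wild type or LPS minus unstimulated differences that changed sign between groups, so their levels and differences below are a description and carry no test. They are 7 of 18194 genes with a probe set assigned to 1 gene, and they have 14 such probe sets. The label, a genotype difference that flips with LPS, held for 6 of the 7. Galnt3 was lower in the knockout with LPS (-2.54) and little different without it (-0.19). Its LPS difference was the one that had opposite signs in the 2 genotypes.

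The cells were grown from bone marrow with M-CSF, a growth factor that drives macrophage formation, for 5 days. They came from wild-type mice or from Jmjd3-/- mice, called knockout here. Each genotype was left unstimulated or was given LPS, a bacterial cell wall component sensed by Toll-like receptor 4, at 100 ng/ml for 4 h. All 4 groups thus shared the M-CSF culture, and each was represented by 1 array, so no difference has a replicate check. The labels do not say how the allele was made, how many animals were used, or whether marrow was pooled.

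JMJD3, the product of Kdm6b, removes from histone H3 the lysine methylation that Polycomb complexes place on silent genes, often at promoters rich in CpG dinucleotides. Macrophages raise Kdm6b expression after Toll-like receptor signals. The 7 genes have no common pathway: they encode 2 receptors of the cell surface, a membrane coat protein, a transcription factor, 2 secreted proteins and a Golgi enzyme.

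Values are log2 probe set intensities after RMA, and a difference is one log2 value minus another. A value of log2 6, called the floor, was used as the limit below which a reading is close to background, and a difference with an end below it has an uncertain size. The 4 array medians ranged from 4.15 to 4.24, and 32.1% to 34.5% of probe sets reached the floor. The brightest Kdm6b probe set read 10.33 in unstimulated wild type, 11.23 in wild type with LPS, 9.82 in unstimulated knockout and 10.82 in knockout with LPS. A dimmer Kdm6b probe set was higher in the knockout (0.64 without and 0.85 with LPS), and another differed by 0.0 and -1.28. Their readings were below the floor, apart from 6.07 for the first in knockout with LPS. It is not known here whether any of these probe sets lies in the deleted part, so they do not check the labels. All 9 macrophage markers examined, among them Csf1r, Adgre1 and Cd68, were above the floor on all 4 arrays.

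The 6 genes with opposite genotype differences are given by the 2 orders that opposite signs allow. Cav1 and Cd28 were higher in unstimulated knockout cells than in wild type and lower with LPS. Dnase1l3, Ednrb, Egr3 and Kazald1 were lower in unstimulated knockout cells and higher with LPS. On its brightest probe set each of the 6 differed 2-fold or more in both states. The share of all genes that did so was 0.202% when 1 of the 4 arrays had to reach the floor (19 of 9386 genes), and this share was itself part of how the genes were chosen. When the higher array of each difference had to reach the floor, 14 of 8291 genes qualified, 0.169%, and Cav1, Ednrb and Egr3 were the members among them. Cd28 and Kazald1 were below the floor on both LPS arrays, and Dnase1l3 on both unstimulated ones.

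**Figure D1:**
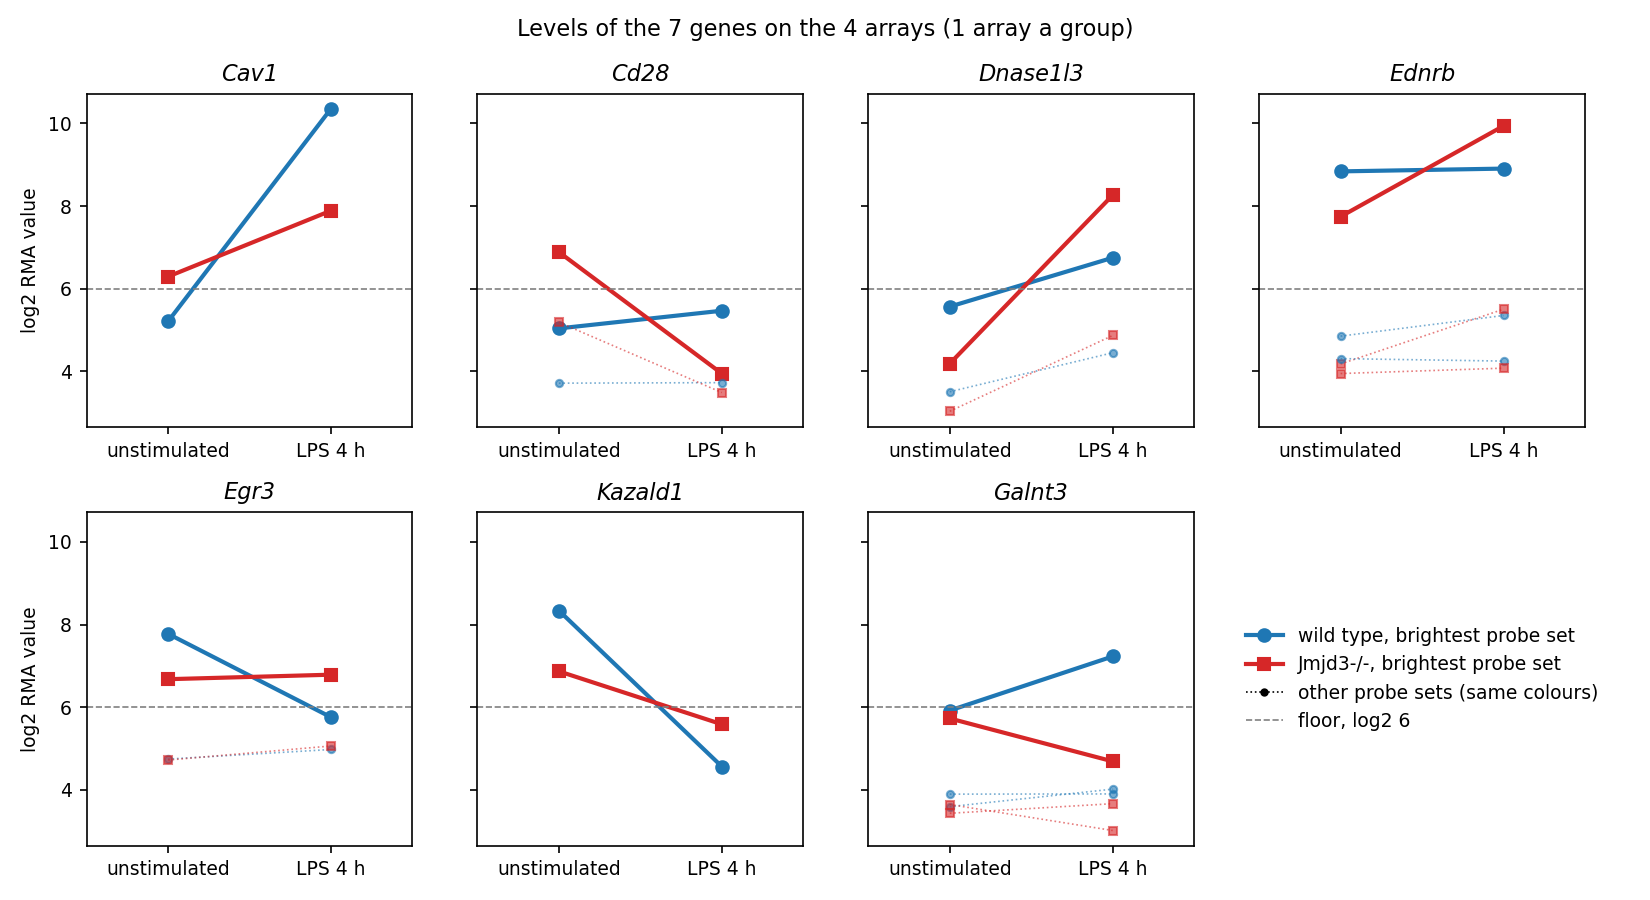
The vertical axis is the log2 RMA value and the horizontal axis the state, with wild type as blue circles and knockout as red squares; thick lines join the brightest probe set of each gene, dotted lines the dimmer ones, and each point is 1 array. The thick lines cross for 6 genes, and for Galnt3 the knockout lies below wild type in both states (5.73 against 5.92, and 4.69 against 7.23).

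Among the receptors, Ednrb encodes the endothelin B receptor, a G protein-coupled receptor for the endothelin peptides. Its brightest probe set read 8.84 in unstimulated wild type, 8.91 in wild type with LPS, 7.75 in unstimulated knockout and 9.94 in knockout with LPS. It was the member with all 4 arrays above the floor. The wild-type arrays were nearly equal, differing by 0.07, while the knockout arrays differed by 2.19, or 4.58-fold. The knockout value was therefore 2.13-fold below wild type without LPS (-1.09) and 2.05-fold above it with LPS (1.03).

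Cd28 encodes the costimulatory receptor of T cells that binds CD80 and CD86 on antigen-presenting cells. Its brightest probe set read 5.04 in unstimulated wild type, 5.47 in wild type with LPS, 6.89 in unstimulated knockout and 3.95 in knockout with LPS. Only the unstimulated knockout array was above the floor, so the genotype difference of -1.52 with LPS was taken between 2 readings below it. Without LPS the difference was 1.85, or 3.59-fold. The LPS difference was 0.43 in wild type and -2.94 in the knockout, a change of sign here too. The wild-type value lies between 2 readings below the floor, and on the second Cd28 probe set it was 0.01.

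Cav1 encodes caveolin-1, the main coat protein of caveolae, the flask-shaped pits of the plasma membrane. It read 5.21 in unstimulated wild type, 10.36 in wild type with LPS, 6.30 in unstimulated knockout and 7.89 in knockout with LPS on its single probe set. LPS arrays were the higher ones in both genotypes, by 5.15 in wild type and by 1.60 in the knockout. Wild type with LPS stood 35.4-fold above unstimulated wild type, and knockout with LPS 3.02-fold above its own unstimulated array. The knockout minus wild type difference was 1.08 without LPS, where wild type was below the floor, and -2.47 with LPS, a 5.53-fold lower value.

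Egr3 encodes a zinc finger transcription factor of the early growth response family, which cells switch on soon after many stimuli. Its brightest probe set read 7.78 in unstimulated wild type, 5.76 in wild type with LPS, 6.68 in unstimulated knockout and 6.79 in knockout with LPS. The wild-type array with LPS was the low one, 4.05-fold under its unstimulated counterpart (-2.02), whereas the knockout arrays differed by 0.11. The genotype difference was -1.10 without and 1.03 with LPS.

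Of the secreted proteins, DNASE1L3 is a nuclease that digests DNA in chromatin and in vesicles outside cells. The brightest Dnase1l3 probe set read 5.57 in unstimulated wild type, 6.75 in wild type with LPS, 4.19 in unstimulated knockout and 8.27 in knockout with LPS. Both LPS arrays were above the floor and both unstimulated ones below it. The LPS difference had the same direction in both genotypes, 1.18 in wild type and 4.08 in the knockout. Knockout minus wild type was -1.38 without LPS and 1.52 with it.

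Kazald1 encodes a secreted protein with an insulin-like growth factor binding domain, a Kazal domain and an immunoglobulin domain. Its single probe set read 8.34 in unstimulated wild type, 4.57 in wild type with LPS, 6.87 in unstimulated knockout and 5.59 in knockout with LPS. LPS arrays were lower in both genotypes, by 13.7-fold in wild type (-3.77) and by 2.43-fold in the knockout (-1.28). The genotype difference was -1.47 without LPS and 1.02 with LPS, the latter between 2 readings below the floor.

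Galnt3 encodes a Golgi enzyme that starts mucin-type O-glycans by adding N-acetylgalactosamine to proteins, FGF23 among them. Its brightest probe set read 5.92 in unstimulated wild type, 7.23 in wild type with LPS, 5.73 in unstimulated knockout and 4.69 in knockout with LPS. Wild type with LPS was the one array above the floor. LPS minus unstimulated was 1.31 in wild type and -1.04 in the knockout. Of all genes, 5 of 9386 (0.0533%) had LPS differences of 2-fold or more in opposite directions when 1 array had to reach the floor, Galnt3 among them. With the higher array of each difference at the floor these were 4 of 8365 (0.0478%), and Galnt3 was not among them. Its knockout minus wild type difference was -0.19 without LPS and -2.54 with it. After quantile normalization of the arrays the LPS difference in the knockout was -0.79, under 2-fold. It was also under 2-fold with the arrays centred on their medians (-0.95), with 64 added to the linear values (-0.38) and with the mean of all probe sets (-0.48).

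The difference between the LPS responses, knockout minus wild type, was -3.55 for Cav1, -3.37 for Cd28 and -2.35 for Galnt3. It was 2.89 for Dnase1l3, 2.49 for Kazald1 and 2.13 for both Ednrb and Egr3. By its absolute size Cav1 stood at rank 26 and Ednrb, the lowest of the 7, at rank 152 of 9386 genes. The 7 genes reached these values in different ways. The wild-type arrays were the farther apart for Cav1, Egr3, Kazald1 and Galnt3, and the knockout arrays for Cd28, Dnase1l3 and Ednrb.

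The limit of 2-fold passed close to several members. The smaller of the 2 genotype differences was 1.02 for Kazald1, 1.03 for Egr3 and Ednrb and 1.08 for Cav1, against 1.38 for Dnase1l3 and 1.52 for Cd28. Just outside stood 1700017B05Rik, Armcx4 and Dusp2, each at 0.98. For LPS differences Galnt3 was just inside at 1.04, and Pdia4 (0.96), Esrra (0.95) and Pdgfrb (0.93) were just outside. After quantile normalization Cav1 in unstimulated cells (0.96) and Egr3 with LPS (0.92) were under 2-fold, which left 4 of the 6. With 64 added to the linear values, which compresses differences near background, 0 of the 6 reached 2-fold both ways. The signs of both genotype differences were kept for all 6 genes in each of these settings. With 64 added this was fixed in advance, since adding the same amount to 2 linear values keeps their order.

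**Figure D2:**
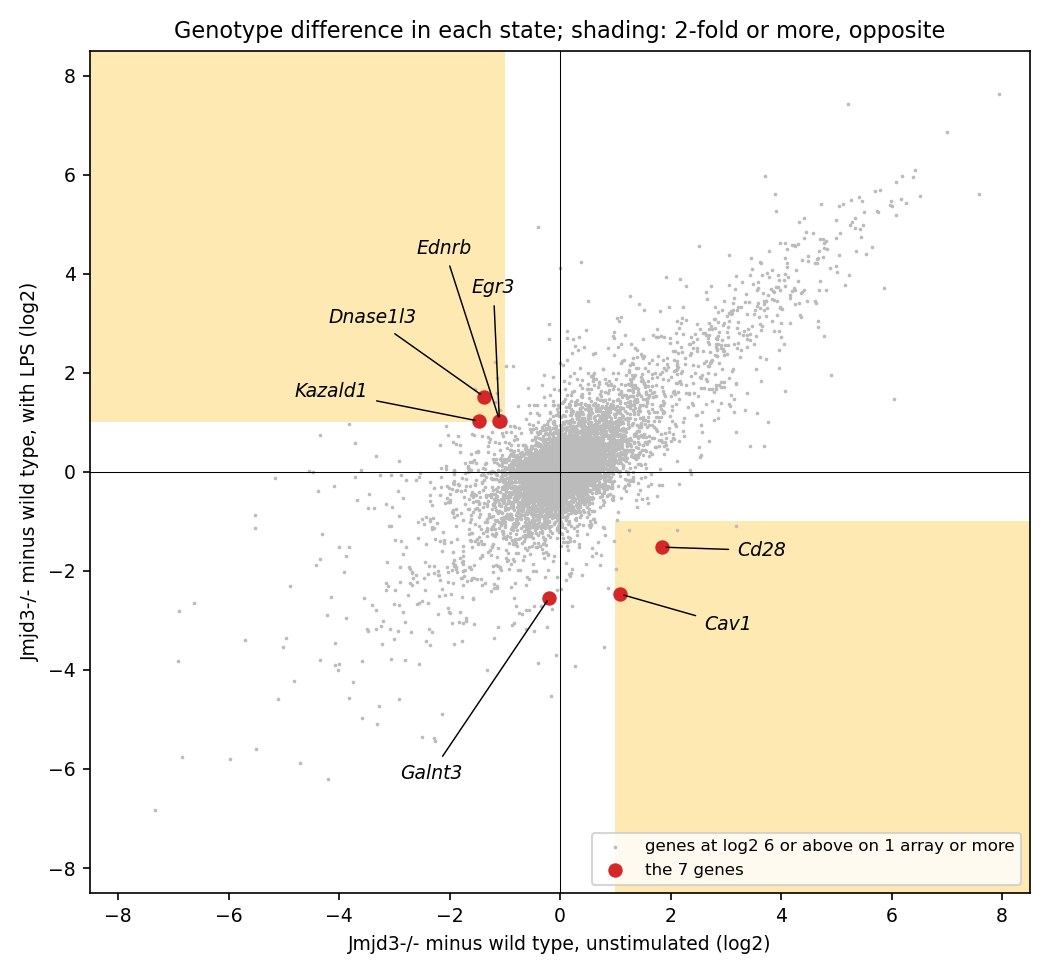
Each grey point is 1 of 9386 genes at log2 6 or above on 1 array or more, by its knockout minus wild type difference without LPS (horizontal, log2) and with LPS (vertical, log2), and red points are the 7 genes. Shading marks opposite differences of 2-fold or more. In it lie 6 red points, 4 of them near its inner edges, and Galnt3 lies outside it at -0.19 and -2.54.

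Several probe sets of a gene read the same RNA and are not replicates of a condition, but they show whether a change of sign depends on 1 probe set. Cav1 and Kazald1 have a single one-gene probe set, so nothing further bears on their sign. The other 5 genes have 7 dimmer probe sets, and all 7 were below the floor on every array. The second Cd28 probe set had the same signs as the brightest, 1.47 without and -0.24 with LPS, and so had that of Dnase1l3, at -0.47 and 0.42. Of the 2 dimmer Ednrb probe sets, one had opposite signs (-0.67 and 0.15) and the other was lower in the knockout in both states (-0.36 and -0.17). The second Egr3 probe set differed by -0.02 and 0.08, which is no difference between genotypes in either state at this signal. Both dimmer Galnt3 probe sets had negative genotype differences in both states, as the brightest had. Without LPS these were small, -0.16 and -0.25, against -0.19 for the brightest. One of the dimmer Galnt3 probe sets had an LPS difference of 0.42 in wild type and 0.23 in the knockout, without a change of sign. The other had 0.01 and -0.63.

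By sign alone, 4 of 5 dimmer probe sets of the genotype-opposed genes went with the brightest one. This count includes the Egr3 probe set without a difference. It also includes the Ednrb probe set at 0.15 and the Cd28 probe set at -0.24 with LPS, both small. Of the 5, 0 reached 2-fold in both states. For comparison, probe sets reading one gene had a median SD of 0.20 for the unstimulated genotype difference and 0.18 for the one with LPS. These are over 3887 genes with several probe sets above the floor. The dimmer probe sets of the members were below the floor on every array, so none of them is in that comparison. When all probe sets of a gene were averaged, 2 of the 6 genes, Cav1 and Kazald1 with their single probe sets, were 2-fold or more apart both ways, and Ednrb differed by -0.71 and 0.34.

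**Figure D3:**
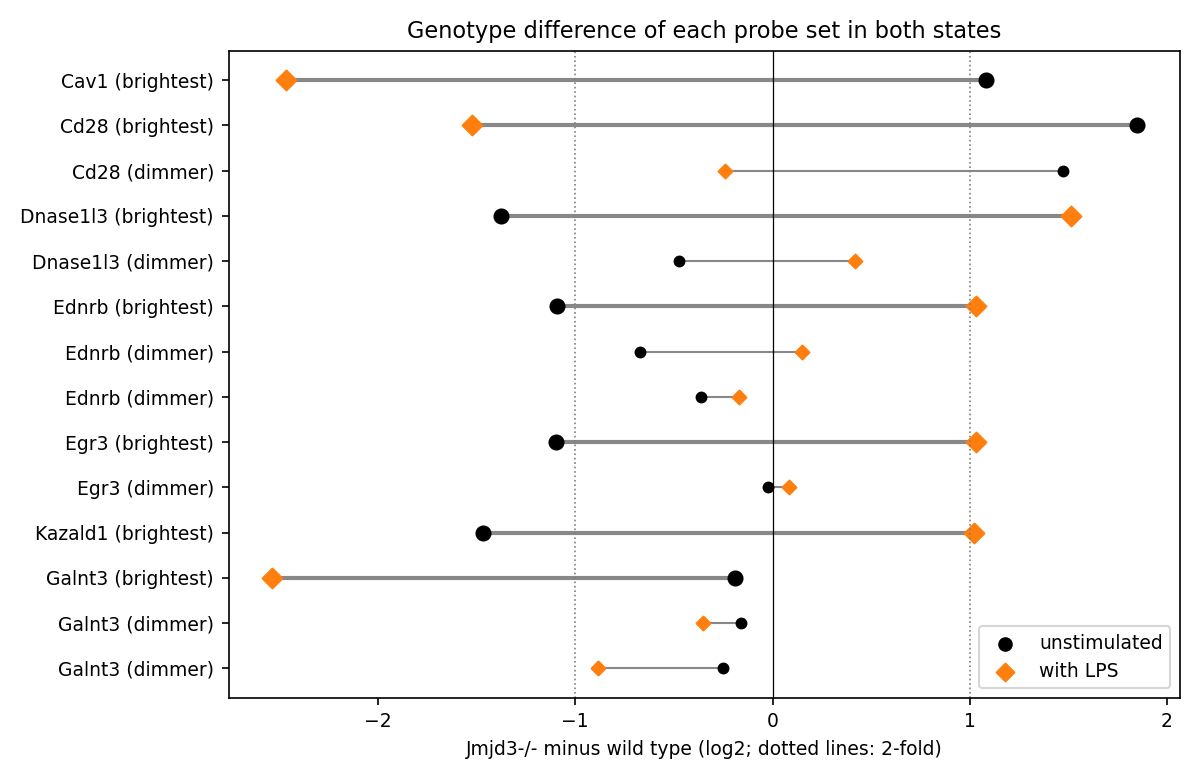
The horizontal axis is knockout minus wild type (log2), with a black circle for the unstimulated and an orange diamond for the LPS-treated arrays of each of the 14 probe sets; large symbols are the brightest of each gene. Large symbols of 6 genes lie on both sides of 0 beyond the dotted 2-fold lines, while those of the dimmer Egr3 probe set almost coincide at 0.

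Genes that work with the 7, or belong to their families, were followed in the additive limma fit of genotype and LPS over all 4 arrays. Of 73 such genes with a one-gene probe set, 45 reached the floor and were tested. With LPS 6 rose and 7 fell, and in the knockout 5 rose and 4 fell. Among all 9386 genes the shares were 11.2% rising and 18.9% falling with LPS, and 6.39% rising and 3.12% falling in the knockout. By count, 0 of the 45 had opposite genotype differences of 2-fold or more. Among all 9386 genes 19 did, or 0.202%, a share at which a count of 0 among 45 says little about these genes. The fit has 1 residual degree of freedom and measures the spread left by additive effects. Without the other factor in the model 1 of the related genes rose with LPS, 0 fell, 2 rose in the knockout and 0 fell.

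Around Cav1, 5 caveola coat and flotillin genes were tested. Ehd2, an ATPase at the neck of caveolae, rose in the knockout by 4.47 (SE 0.27, higher with and without LPS, limma, Benjamini-Hochberg adjusted p = 0.00209). Cavin1, which is needed to form caveolae, rose by 2.09 (SE 0.38, limma, adjusted p = 0.0361). Cav2, the partner of caveolin-1, read 10.48 and 10.31 in wild type and 9.93 and 9.69 in the knockout and did not pass (genotype -0.58, limma, adjusted p = 0.117). By limma 0 of the 5 passed for LPS, at an adjusted or an unadjusted p below 0.05, while Cav1 itself was higher with LPS in both genotypes. The CD28 family and its ligands gave 7 tested genes, of which 4 rose with LPS: the ligand genes Cd86 (3.07), Cd80 (2.17) and Icosl (1.93) and the inhibitory receptor gene Btla (1.98). In the knockout 3 fell, Pdcd1lg2 (-4.15, encoding the PD-1 ligand PD-L2), Icos (-2.32) and Cd80 (-1.33). Btla and Icos were above the floor only in wild type with LPS, so the sizes of their effects are uncertain. Ctla4 and Pdcd1 were below the floor on all arrays.

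In the endothelin system 3 genes were tested. Edn1, which encodes the ligand endothelin-1, read 5.01 in unstimulated wild type, 10.52 in wild type with LPS, 5.54 in unstimulated knockout and 9.42 in knockout with LPS. It rose with LPS by 4.70 (SE 0.42, in wild type and knockout alike in direction, limma, Benjamini-Hochberg adjusted p = 0.00517). Ece2, an endothelin-converting enzyme gene, rose by 0.84, and Ece1 did not pass (-0.47). By limma 0 of the 3 passed for genotype, 1 of them at an unadjusted p below 0.05. Edn1 differed between genotypes by 0.54 without and -1.11 with LPS, the opposite order of signs to its receptor gene Ednrb, though the first value lies between readings below the floor.

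Of 10 tested EGR, NAB and serum response genes, Egr2 had a genotype effect of -1.71 and fell in the knockout (SE 0.29, lower with and without LPS, limma, Benjamini-Hochberg adjusted p = 0.0324). By limma 0 of the 10 passed for LPS, 2 of them at an unadjusted p below 0.05. The immediate early genes Egr1 and Fos had small genotype differences without LPS and larger ones with it. Egr1 differed by -0.02 and 1.30, and Fos by 0.24 and 1.99. Neither passed for genotype. On the wild-type arrays Egr1 read 11.81 without and 10.41 with LPS, Fos 11.86 and 9.92, and Srf, the serum response factor gene, 7.61 and 6.19, each lower with LPS as Egr3 was. Knockout arrays of Egr1 (11.79 and 11.72) and Fos (12.10 and 11.91) differed by less than those of wild type, and those of Srf read 7.31 and 6.90. Fos and Srf were picked after their values were seen.

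Among 6 tested insulin-like growth factor and binding protein genes, the group of Kazald1, 3 binding protein genes rose in the knockout: Igfbp7 by 4.60, Igfbp5 by 2.30 and Igfbp4 by 1.44. These genes, like Ehd2 and Cavin1, rose in the knockout together with 7 of 9 tested stromal markers, among them Col1a1 (6.04), Col3a1 (6.17) and Acta2 (4.73), and the part of stromal cells in them was not tested. With LPS Igfbp4 (-0.98) and Igf1 (-0.60) fell. Kazald1 had a lower value than wild type in the unstimulated knockout, where the 3 binding protein genes were higher. Of 11 tested GALNT and O-glycan core genes, 3 fell with LPS, Gcnt1 (-2.76), Galnt9 (-2.52) and Galnt1 (-0.80), and 0 passed for genotype by limma, 3 of them at an unadjusted p below 0.05. Galnt6, a close relative of Galnt3, was at -0.81 without and -1.46 with LPS in the knockout (limma, Benjamini-Hochberg adjusted p = 0.055). Of 3 tested DNase genes Dnase2a, the lysosomal DNase II gene (-1.40), and Endog (-0.86) fell with LPS, and by limma 0 passed for genotype, at an adjusted or an unadjusted p below 0.05. Dnase2a was above the floor only in unstimulated knockout and Galnt9 only in unstimulated wild type, so the sizes of their effects are uncertain.

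In single comparisons of 2 arrays, 9.54% of genes whose higher array reached the floor were at least 2-fold higher and 5.74% lower in unstimulated knockout cells, and 9.76% and 5.65% with LPS. Of the CD28 family 4 of 5 genes were lower without LPS and 4 of 7 with it, of the insulin-like growth factor list 4 of 6 were higher in both states, and of the caveola list 2 of 5 were. The median genotype difference over the 7 tested genes of the CD28 family was -1.81 without and -1.53 with LPS, against 0.00 for all genes in both states. Over all 9 measured genes, with Ctla4 and Pdcd1 below the floor, it was -1.46 and -1.53.

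**Figure D4:**
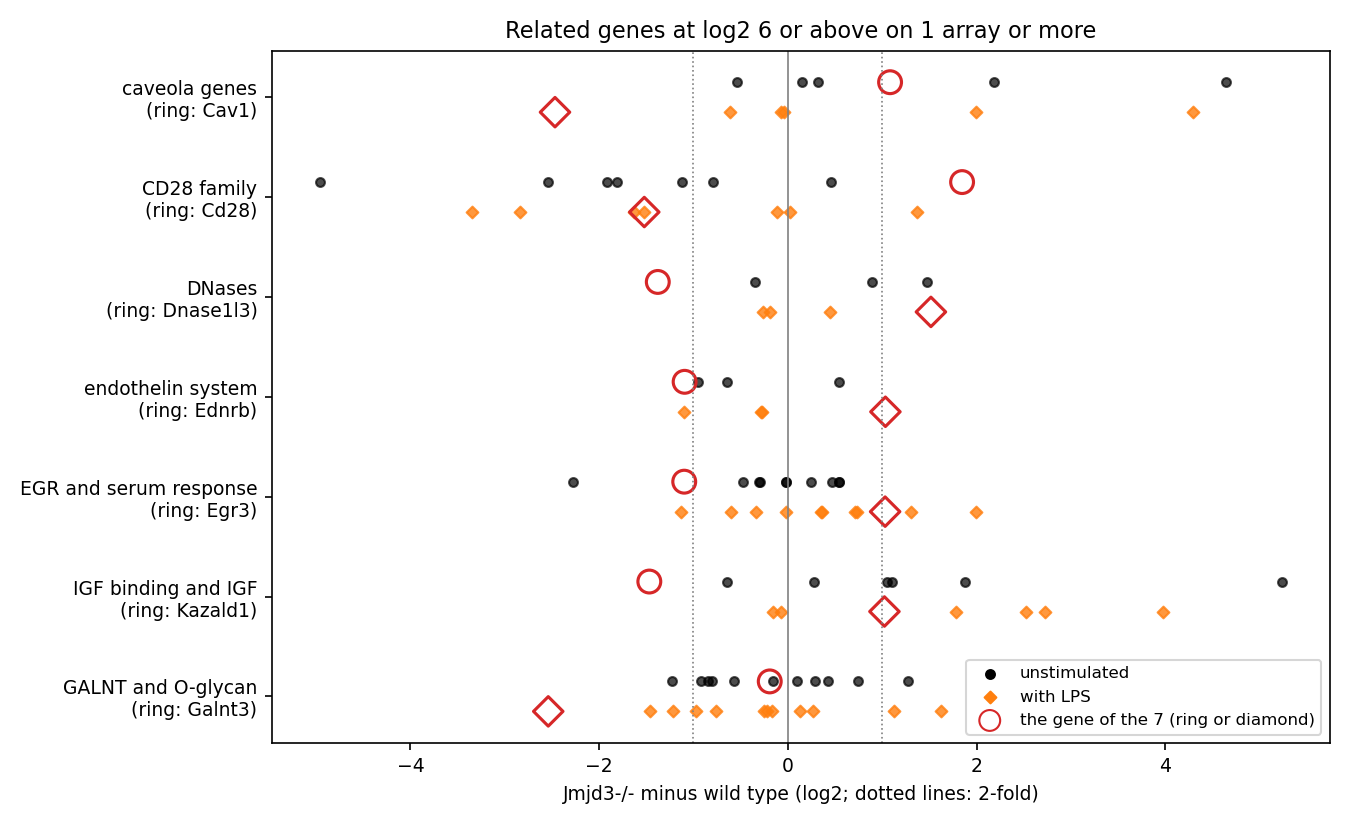
For each list the horizontal axis is knockout minus wild type (log2), with black circles for unstimulated and orange diamonds for LPS-treated arrays of the 45 related genes tested, and red open symbols for the gene of the 7 that the list belongs to. The red pairs of 6 lists lie on opposite sides of 0 beyond 2-fold, and no related gene has both of its symbols placed so. Over all genes the share placed so is 0.202%.

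Markers of other cell types differed between the genotypes in both states. Of 9 measured granulocyte precursor markers 2 and 4 were above the floor in wild type (unstimulated and LPS) and 9 on each knockout array, and their summed linear values were 1176, 1900, 35149 and 34297 in the order unstimulated wild type, wild type with LPS, unstimulated knockout and knockout with LPS. Of 10 stromal markers 2, 5, 7 and 8 were above the floor in that order, with sums of 504, 655, 19253 and 15245, and Lum was below the floor throughout. Thy1 went the other way, at -1.15 without and -2.31 with LPS, and was above the floor only in wild type with LPS. In bulk RNA, a change in the number of cells of a type and a change in RNA per cell cannot be told apart. The part of these cells in the values of the 7 genes and of the related genes was not tested.

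Cd28 is known as a T cell gene and Dnase1l3 as a gene of dendritic cells and macrophages, so the lists of those cells are given beside them. Of 7 measured T, B and NK markers, Cd3d, Cd3e and Cd3g were above the floor on both wild-type arrays and 0 were on either knockout array, with summed linear values of 365, 468, 88 and 104 in the same order of arrays. Cd28 was highest in unstimulated knockout. Of 7 dendritic cell markers 2, 3, 1 and 2 were above the floor, with sums of 4390, 6138, 1035 and 1239, and Flt3, Xcr1, Siglech and Cd209a were below it throughout. Most of each sum was Itgax, which macrophages also express, at linear values of 4213, 5210, 957 and 1008. Of 7 endothelial markers 2, 2, 2 and 1 were above the floor (sums 324, 344, 272 and 356), and Pecam1, Cdh5, Tek, Tie1 and Emcn were below it on all arrays. Of 7 mast cell and basophil markers 1, 3, 0 and 0 were above the floor (sums 326, 693, 123 and 144). The part of these cell types in the members' values was not tested.

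The genes most like each member were those with the smallest root mean square distance between mean-centred log2 profiles over the 4 arrays. A likeness to the member in order or in signs is thus part of how they were picked. Fst, encoding the activin inhibitor follistatin, was nearest to Cav1 (0.26), followed by Fabp3 (0.34) and Sntb1 (0.37). Fst read 5.62 in unstimulated wild type, 10.24 in wild type with LPS, 6.64 in unstimulated knockout and 7.74 in knockout with LPS, the same order as Cav1. Nearest to Ednrb were Bcl3 (0.17), Mob3b (0.18) and Icam1 (0.18), of which Bcl3 encodes an NF-kB regulator and Icam1 an adhesion molecule. Their genotype differences had the signs of Ednrb but were under 2-fold, for example -0.74 and 0.88 for Icam1. Nearest to Dnase1l3 were Sectm1a (0.16), Batf (0.28), encoding an AP-1 family factor, and Gpr84 (0.32).

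Egr3 was nearest to Pfas (0.14), Id1 (0.16) and Dkc1 (0.22). PFAS is an enzyme of purine synthesis, ID1 an inhibitor of helix-loop-helix factors, and dyskerin, from Dkc1, acts on ribosomal RNA and telomerase. Kazald1 was nearest to Cgnl1 (0.20), Dhcr7 (0.32) and Tns4 (0.33), encoding a junction protein, an enzyme of cholesterol synthesis and a tensin. Cd28 had more distant neighbours, 6330509M05Rik (0.38), Padi2 (0.39) and Ccdc28a (0.42). Galnt3 was nearest to Ccdc39 (0.16), Cbln1 (0.24) and Ankrd37 (0.28). Among the members themselves the closest pairs were Dnase1l3 with Ednrb (0.78) and Egr3 with Kazald1 (0.80), and Cav1 and Kazald1 were the farthest apart (3.32).

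Promoter sequence was not used to choose the genes. RefSeq windows from 250 bases before to 50 bases after a start site, on GRCm38.p6, were at hand for 4 of the 7 genes, Cav1 and Kazald1 with 2 windows each. No window was matched for Cd28, Dnase1l3 and Egr3. The first window of Cav1 and Kazald1 and the windows of Ednrb and Galnt3 are shown because promoters rich in CpG are typical places of the histone methylation that JMJD3 removes, and because the 4 genes differ in CpG content. Each is written 5′ to 3′ on the strand of the gene, and capitals mark CpG dinucleotides.

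Galnt3, chr2:66124744-66125043, minus strand: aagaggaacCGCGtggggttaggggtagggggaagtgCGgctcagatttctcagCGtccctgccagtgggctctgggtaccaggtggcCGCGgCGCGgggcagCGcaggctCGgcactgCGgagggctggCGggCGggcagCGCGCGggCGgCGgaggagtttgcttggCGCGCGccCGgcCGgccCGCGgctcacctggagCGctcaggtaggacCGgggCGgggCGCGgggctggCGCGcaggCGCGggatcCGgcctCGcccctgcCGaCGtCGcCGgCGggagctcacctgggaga

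Kazald1, chr19:45074991-45075290, plus strand: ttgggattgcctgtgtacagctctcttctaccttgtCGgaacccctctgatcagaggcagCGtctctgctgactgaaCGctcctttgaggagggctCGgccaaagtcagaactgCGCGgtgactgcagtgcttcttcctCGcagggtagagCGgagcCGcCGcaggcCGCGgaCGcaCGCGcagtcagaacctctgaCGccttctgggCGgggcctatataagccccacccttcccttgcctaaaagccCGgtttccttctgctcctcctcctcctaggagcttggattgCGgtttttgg

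Ednrb, chr14:103843652-103843951, minus strand: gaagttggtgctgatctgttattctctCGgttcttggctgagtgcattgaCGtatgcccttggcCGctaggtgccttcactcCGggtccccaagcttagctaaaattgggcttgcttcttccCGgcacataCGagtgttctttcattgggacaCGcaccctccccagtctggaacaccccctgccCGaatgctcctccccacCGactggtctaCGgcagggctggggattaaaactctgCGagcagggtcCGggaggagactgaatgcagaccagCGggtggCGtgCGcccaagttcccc

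Cav1, chr6:17306085-17306384, plus strand: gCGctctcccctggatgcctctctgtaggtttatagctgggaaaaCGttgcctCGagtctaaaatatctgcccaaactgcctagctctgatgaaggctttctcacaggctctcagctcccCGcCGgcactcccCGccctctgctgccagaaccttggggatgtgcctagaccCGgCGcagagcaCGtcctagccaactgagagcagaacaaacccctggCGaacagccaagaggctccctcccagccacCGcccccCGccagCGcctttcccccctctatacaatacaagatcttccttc

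The Galnt3 window held 41 CpG and was 76.7% G and C, with more CpG than 96.5% of 32851 windows of the same length. The Kazald1 window held 19 CpG, that of Ednrb 15 and that of Cav1 13, and the second windows of Kazald1 and Cav1 14 and 16. The median over all windows was 7 (quartiles 3 and 20), so those of the 3 genes with opposite genotype differences lay between the median and the third quartile. The one gene of the 4 whose genotype difference did not change sign, Galnt3, had the window with the most CpG, a comparison of single genes without a test. The ratio of observed CpG to that expected from the C and G content was 0.972 for Galnt3. It was 0.707 and 0.589 for Kazald1, 0.582 for Ednrb, and 0.535 and 0.601 for Cav1. All were above the median of 0.384 over all windows, and only Galnt3 was above the third quartile of 0.75.

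Both strands of the 6 windows were searched for 8 motifs. They were the kappaB motif (in 4.51% of all windows), the AP-1 motif TGANTCA (7.81%), the cyclic AMP response element TGACGTCA (1.79%), the CArG box of serum response factor (1.63%), the interferon-stimulated response core GAAANNGAA (8.56%), the GAS motif TTCNNNGAA (8.30%), the E-box CACGTG (7.15%) and the TATA box TATAAA (13.6%). The GAS motif can overlap the interferon core. The single match was TATAAA on the opposite strand of the first Cav1 window, at position -221 from the start site. Only these exact letters were searched, without variants of the TATA box. The first Kazald1 window holds tatataa on the gene strand before its start site, which did not count as a match. No match says only that these letters are not in these windows.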

How the data were processed

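Total RNA was extracted with Trizol, labelled as biotinylated cRNA by NuGEN Ovation and run on Affymetrix arrays, per the labels' protocols. The deposited values are log2 probe set values made by the authors with RMA, per the submitters' processing notes. The sources used here give no version, nor the set of arrays processed together. The number of arrays, 4, limits the precision.

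Of 45101 probe sets, those assigned to 1 gene in GEO's platform annotation were used, with symbols updated through the RefSeq table of GRCm38.p6. The probe set brightest on average stood for a gene, and all probe sets were shown for the members. limma 3.58.1 in R 4.3.3 was fitted to 9386 genes with additive genotype and LPS terms and an intensity trend, with calls made where the p after Benjamini-Hochberg adjustment was below 0.05. The fit was tested on simulated data. Other steps used pandas 2.3.3 in Python 3.11.15. The members, the 7 related lists and the 7 marker lists were chosen with earlier results of these data known. Named beside the members were list genes with the largest effects past the test and nearest family members, the 3 nearest profiles and the genes around the 2-fold limit. Fos, Srf and Ece1 were named after their values were seen. Of 76 related genes 73 were measured.

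Alternatives were other scalings, floors, folds and probe set rules, and for the fit no trend and no second factor. A floor on any 1 of the 4 arrays was added after seeing the data.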

Additional observations from a re-analysis of the deposited data

Results flagged for a closer look

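Each of the 7 genes moved one way in one state or genotype and the opposite way in the other, which is how they were chosen, and the difference between the LPS responses (knockout minus wild type, log2) was not tested because each group has 1 array. It was -3.55 for Cav1, -3.37 for Cd28, 2.89 for Dnase1l3, 2.13 for Ednrb, 2.13 for Egr3 and 2.49 for Kazald1, whose genotype differences were opposite, and -2.35 for Galnt3, whose LPS differences were.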

How the results depend on the processing

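Of 175 recomputed differences of the 7 genes (5 differences, 5 alternatives) 0 changed sign. For many of them this was fixed in advance. Adding 64 to the linear values keeps the order of any 2 arrays. The probe set with the largest range was the brightest one for each gene. The mean of all probe sets leaves Cav1 and Kazald1, with single probe sets, as they were. By size, 50 of the 175 moved by more than the median spread between probe sets. Of these, 30 did so with 64 added and 19 with the mean of all probe sets. Where the 6 genes reached 2-fold both ways as deposited, 0 did with 64 added and 2 with the mean of all probe sets. The count of 14 genes with opposite genotype differences was 3 with 64 added, 4 with a floor of log2 8, 50 at 1.5-fold and 0 at 4-fold. The 4 with opposite LPS differences were 2 with 64 added, 33 at 1.5-fold and 0 at 4-fold. In the limma fit 1054 genes rose and 1770 fell with LPS, and 600 rose and 293 fell in the knockout. Without the other factor these were 183, 84, 100 and 11. With a floor of log2 8, 1166 fell with LPS, 298 rose and 163 fell in the knockout, and with the mean of all probe sets 340 rose and 189 fell in the knockout. Of the related genes 6 rose and 7 fell with LPS, and 5 rose and 4 fell in the knockout. Without the other factor these were 1, 0, 2 and 0. With a floor of log2 8, 3 rose and 2 fell in the knockout, with the mean of all probe sets 3 and 1, and without intensity trend 4 fell with LPS. A higher floor tests fewer genes, and a lower fold limit admits more genes and a higher one fewer by definition. Without the other factor in the model, the effect of that factor stays in the spread that the fit measures. The cause of the other changes was not tested. Several members lie near background, where array signal limits what can be read. No paired analysis was possible because each group has 1 array.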

Other observations

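Beside the 6, 13 genes had genotype differences of 2-fold or more in opposite directions, for which only the same 2 orders are possible. Lower in the unstimulated knockout and higher with LPS were Plau (-4.42 and 1.58), the urokinase gene, Ston2 (-1.54 and 1.68), Myc (-1.18 and 2.22), Id1 (-1.17 and 1.40), Rnase6 (-1.14 and 1.89), Zfp532 (-1.14 and 1.59), Sectm1a (-1.09 and 1.26) and Nol10 (-1.17 and 1.005). Higher without and lower with LPS were Serpinb1a (3.18 and -1.09), Plagl1 (2.11 and -1.17), Ifngr2 (1.25 and -1.17), the interferon gamma receptor 2 gene, Kctd1 (1.02 and -1.97) and Fst (1.02 and -2.50). Sectm1a and Kctd1 had a difference with both ends below the floor. With Cd28 and Cav1 and the other 4 members, 7 of the 19 genes were higher without and lower with LPS in the knockout and 12 the reverse.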
